A study of Mus musculus with 19 samples.

Results

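Replication-dependent histone genes were taken as the genes whose symbol is H1f1 to H1f5, or H2ac, H2bc, H3c or H4c followed by digits. Of 55359 genes in the bulk count tables of a mouse melanoma study, 64 met this rule: 5 of H1, 18 of H2A, 17 of H2B, 12 of H3 and 12 of H4. Of 33696 features in its single-cell matrices, 66 met it. The study compared B16-F10 cells, a mouse melanoma line, with Mettl5 KO against the same line with a scrambled control (SCR). Input RNA and ribosome footprints were each sequenced in 2 KO and 2 SCR libraries from cultured cells treated before lysis, for the footprints, with 100 µg/ml cycloheximide for 8 min. Single-cell libraries were made from CD45+ live cells sorted from 1 KO and 1 SCR tumour sample, in which the host cells carry their own Mettl5 whatever the genotype of the tumour cells. T-cell receptor libraries from blood hold no histone genes and were not used. The labels do not say whether the KO cells are 1 clone or a pool, nor whether replicates are separate cultures, so p-values measure the spread between these libraries, which may be technical. In the count tables the KO columns bear another name (POOL) and were taken as KO because the remaining columns are named SCR.

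Nucleosomes hold DNA on an octamer of H2A, H2B, H3 and H4, and the linker histone H1 binds where DNA enters and leaves. The replication-dependent genes lie in clusters, mostly lack introns and are transcribed mainly in S phase, when newly copied DNA needs packaging. Their mRNAs end in a stem-loop bound by SLBP, the stem-loop binding protein, in place of a poly(A) tail. They are degraded when DNA synthesis stops. METTL5 is a methyltransferase that modifies an adenosine of 18S ribosomal RNA. Many copies within a class are near identical, so reads can be assigned to the wrong copy, and class sums are given beside single copies.

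Libraries held 38968000 to 48692578 counts for input RNA and 14555963 to 31301806 for footprints. Mettl5 itself had 6.46 and 6.21 CPM (counts per 1000000) in KO input RNA, against 9.23 and 9.41 CPM in SCR input RNA (log2 fold change -0.56, SE 0.13, adjusted p = 0.0284, edgeR). In footprints it had 11.1 and 11.6 CPM in KO cells, against 15.1 and 13.8 CPM in SCR cells, with an adjusted p of 0.112 in edgeR. Melanocyte markers summed to 13617 to 13811 CPM in KO input RNA and 12644 to 12863 CPM in SCR input RNA, and leukocyte markers to 1.88 to 3.18 CPM in KO input RNA and 3.503 to 3.934 CPM in SCR input RNA. Fibroblast and endothelium markers summed to 38.6 to 38.8 CPM in KO input RNA and 20.8 to 21.5 CPM in SCR input RNA. Of that list Col1a2 had 30.4 and 29.9 CPM in KO input RNA and 9.91 and 11.4 CPM in SCR input RNA, whereas Pdgfrb had 6.87 and 7.21 CPM in KO input RNA and 10.01 and 7.80 CPM in SCR input RNA, and Dcn and Cdh5 were at 0 in all input libraries. In footprints the list summed to 40.2 to 47.8 CPM in KO cells and 54.4 to 55.1 CPM in SCR cells. The part of these markers in the histone results was not tested.

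Of the 64 members, 54 lie on chromosome 13 and 10 on chromosome 3. RefSeq promoter windows, from 250 bases before to 50 after each gene's start, were matched by symbol for 57 of them, as 58 windows because H2bc6 has a pair. The 200 bases before the start of 1 member a class are shown because these members moved together in the input RNA. Each is the member with the smallest p in that comparison among those with at least 1 CPM in every input library and a promoter window. Capitals mark matches, on either strand, to 5 motifs that are spelled out with their counts after the sequences, which are RefSeq's. In H4c8 the match begins at base -5 from the start, so its last letter lies past the printed end. The stretches lie, in GRCm38.p6, at chr13:23622559-23622758 on the minus strand (H1f4), chr3:96220881-96221080 on the minus strand (H2ac20), chr13:22035621-22035820 on the plus strand (H2bc12), chr13:23562386-23562585 on the minus strand (H3c6) and chr13:23530844-23531043 on the plus strand (H4c8).
H1f4: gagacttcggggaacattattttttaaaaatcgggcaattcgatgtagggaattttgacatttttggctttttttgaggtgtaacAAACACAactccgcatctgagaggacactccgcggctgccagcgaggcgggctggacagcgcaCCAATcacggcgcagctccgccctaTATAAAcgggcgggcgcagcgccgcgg
H2ac20: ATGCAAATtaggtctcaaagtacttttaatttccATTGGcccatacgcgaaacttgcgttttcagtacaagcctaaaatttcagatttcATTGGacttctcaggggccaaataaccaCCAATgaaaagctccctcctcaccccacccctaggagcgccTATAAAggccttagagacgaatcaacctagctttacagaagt
H2bc12: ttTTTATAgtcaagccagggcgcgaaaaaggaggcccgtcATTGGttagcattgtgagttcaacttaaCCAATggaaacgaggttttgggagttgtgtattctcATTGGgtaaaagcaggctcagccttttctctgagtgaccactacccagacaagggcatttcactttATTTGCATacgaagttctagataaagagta
H3c6: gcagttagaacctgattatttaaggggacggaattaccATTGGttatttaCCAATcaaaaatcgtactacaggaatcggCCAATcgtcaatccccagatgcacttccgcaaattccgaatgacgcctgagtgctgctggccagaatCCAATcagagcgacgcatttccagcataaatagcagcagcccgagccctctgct
H4c8: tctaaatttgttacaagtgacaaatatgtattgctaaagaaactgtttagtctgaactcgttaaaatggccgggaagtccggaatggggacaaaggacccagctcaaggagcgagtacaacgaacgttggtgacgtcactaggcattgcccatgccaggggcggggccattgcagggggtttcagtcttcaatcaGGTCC

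Over the whole windows, and counting both strands, CCAAT was present in 50 of 58 (86.2%), against 37.4% of all 32851 promoter windows. It was found in all 5 H1, 17 H2A, 15 H2B and 10 H3 windows but in 3 of 11 H4 windows. TATAAA, the letters of the TATA box, was present in 58.6% of the members' windows, against 13.6% of all windows. Matches were counted at any position and on either strand, such as base -250 in H4c6, 41 in H4c1 and -198 on the minus strand in H2bc12. Whether a match acts as a TATA box was not tested. GGTCCG, part of a site known in H4 promoters, was found in 10 of 11 H4 windows, 1 H2B window and 1 H3 window, against 8.25% of all windows. The octamer, ATTTGCAT, was found in 7 of 15 H2B and 6 of 17 H2A windows and in no window of the other classes, against 1.74% of all windows. Windows of neighbouring H2A and H2B genes can overlap, and a match there is counted in both classes. The octamer of H2ac12, at base -155, and that of H2bc12, at base -30 on the other strand, are such a shared match. AAACACA, the AC box of H1 promoters, was found in 4 of 5 H1, 2 H2A and 2 H2B windows, against 7.18% of all windows. CCAAT was in 31 of 37 windows of members that rose in KO input RNA and in 19 of 21 windows of the other members.

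The input RNA comparison addressed which histone mRNAs differ between KO and SCR cells. Of 59 members tested, 41 rose in KO cells and 0 fell, at an adjusted p under 0.05 in edgeR's quasi-likelihood test over 20025 genes. Over all genes tested, 9.56% rose and 7.21% fell. The members' median log2 fold change was 0.53, against -0.0061 over all genes. At an unadjusted p under 0.05 there were 46 members, all of them higher in KO cells, and DESeq2 called 39 higher and 0 lower. The shares of all genes at these settings were not counted. In 53 of all 64 members, the untested H4c18 among them, both KO libraries lay above both SCR libraries, and in 0 members both lay below. The same pattern, KO above SCR without overlap, was seen in 31% of all genes tested. The 41 members that rose had log2 fold changes from 0.26 to 1.27, leaving out H2ac19, which is described with its class. On chromosome 13, 35 of 51 tested members rose, and on chromosome 3, 6 of 8. Without replicate 1 of the SCR input libraries 25 members rose, and with no filter on low counts 23 rose. In bulk samples, a larger share of cells in S phase and more histone RNA per cell cannot be told apart. No source used here says how the bulk RNA was selected, so whether input RNA levels, and the ratios built on them, count all histone mRNA or a polyadenylated fraction cannot be told apart.

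**Figure D1:**
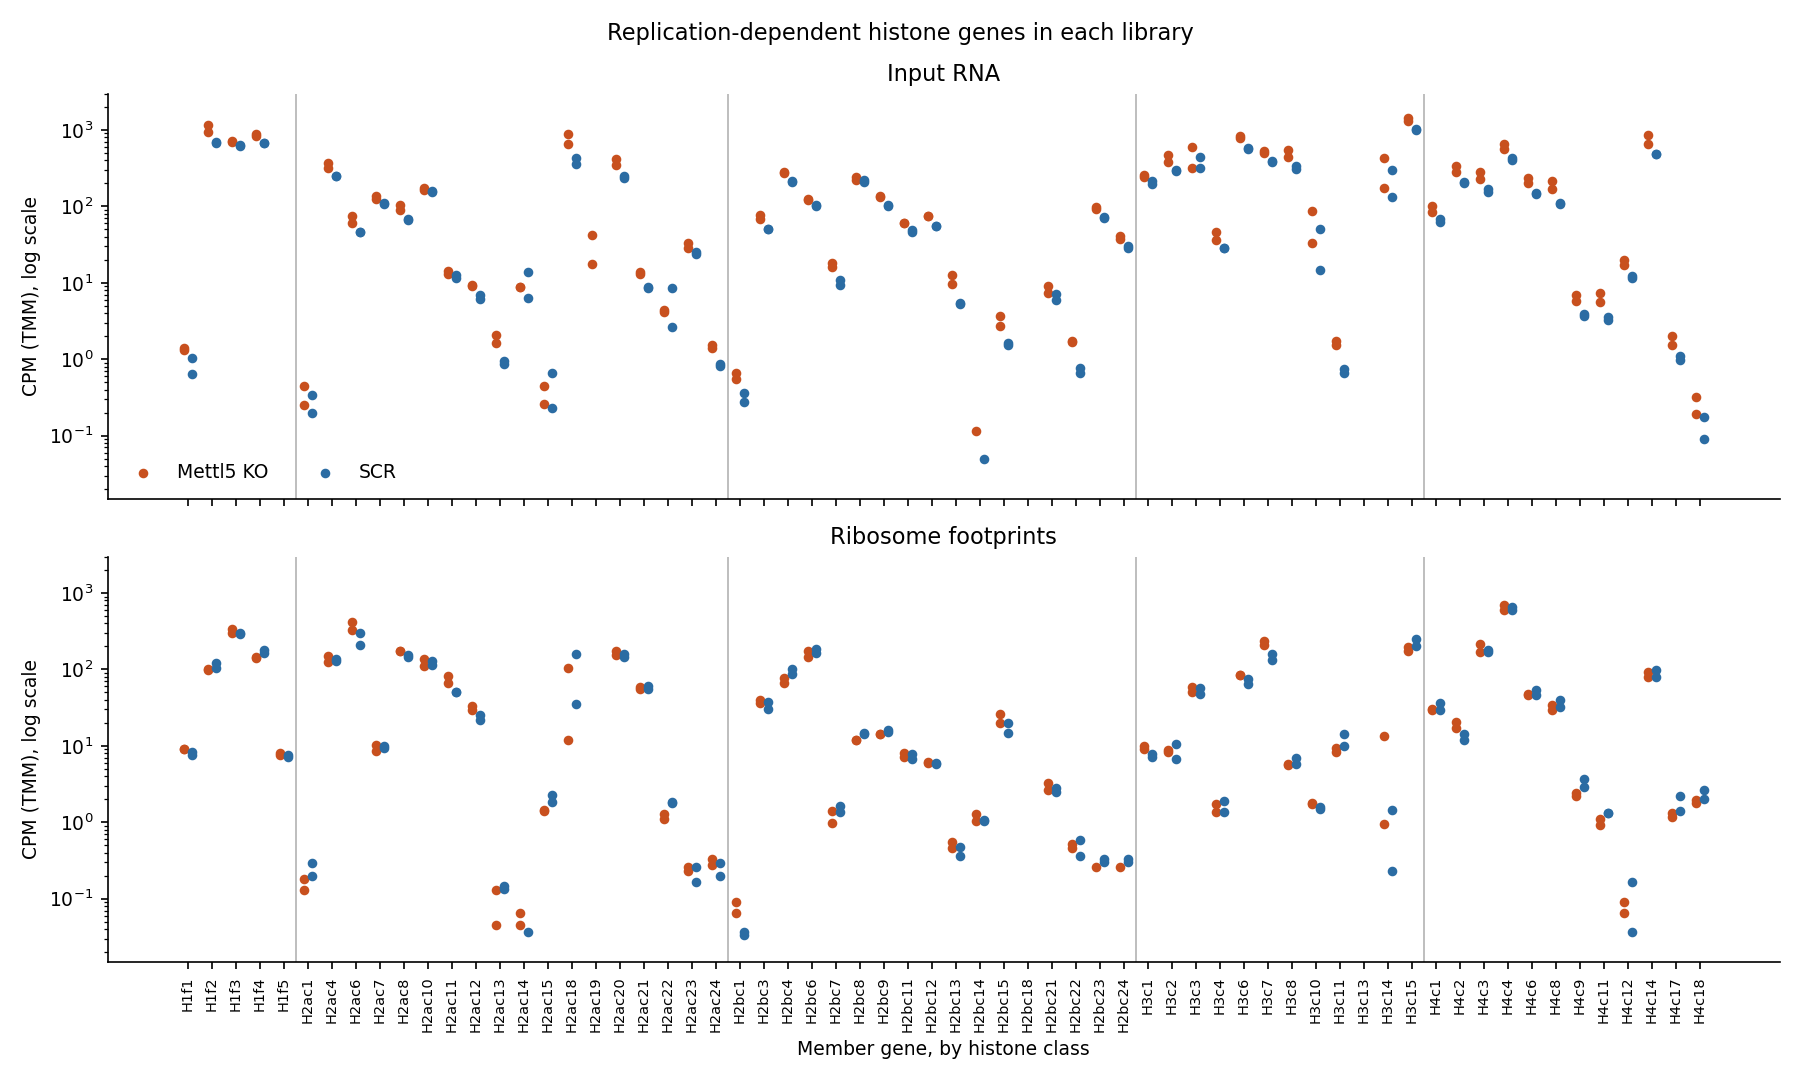
Level of each member in each library, in CPM on a log scale, for input RNA (top) and footprints (bottom). Orange points are the 2 Mettl5 KO libraries and blue points, to their right, the 2 SCR libraries; libraries at 0 are not drawn. In input RNA both KO libraries are above both SCR libraries for 53 of 64 members, against 31% of all genes tested. In footprints both are above for 15 members and below for 17, against 29.5% and 28.2% of all genes tested.

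The class sums do not depend on how reads were split between copies of a class, and no test was made on them. H2A summed to 2287 and 1863 CPM in KO input RNA, against 1294 and 1366 CPM in SCR input RNA, a 1.56-fold ratio of means. Of the H2A means, 2075 CPM in KO and 1330 CPM in SCR input RNA, the copies H2ac18 and H2ac19 held 807 and 390 CPM. H4 summed to 2723 and 2212 CPM in KO input RNA, against 1596 and 1623 CPM in SCR input RNA (1.53-fold). For both classes the lower KO library lay above the higher SCR library, by 1.36-fold. H3, the most abundant class, summed to 5241 and 4225 CPM in KO input RNA, against 3462 and 3424 CPM in SCR input RNA (1.37-fold). H1 summed to 2751 and 2490.3 CPM in KO input RNA, against 2005 and 1997 CPM in SCR input RNA (1.31-fold). H2B had the smallest ratio, 1.27-fold, with 1151 and 1154 CPM in KO input RNA, against 917 and 901 CPM in SCR input RNA. All 64 members summed to 13048 ± 1563 CPM in KO input RNA and 9292 ± 25.6 CPM in SCR input RNA (SD, n = 2 each), or 1.18% to 1.36% of KO counts and 0.950% to 0.951% of SCR counts. KO replicate 1 was above KO replicate 2 in the sums of H1, H2A, H3 and H4, whereas the SCR replicates lay close together.

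**Figure D2:**
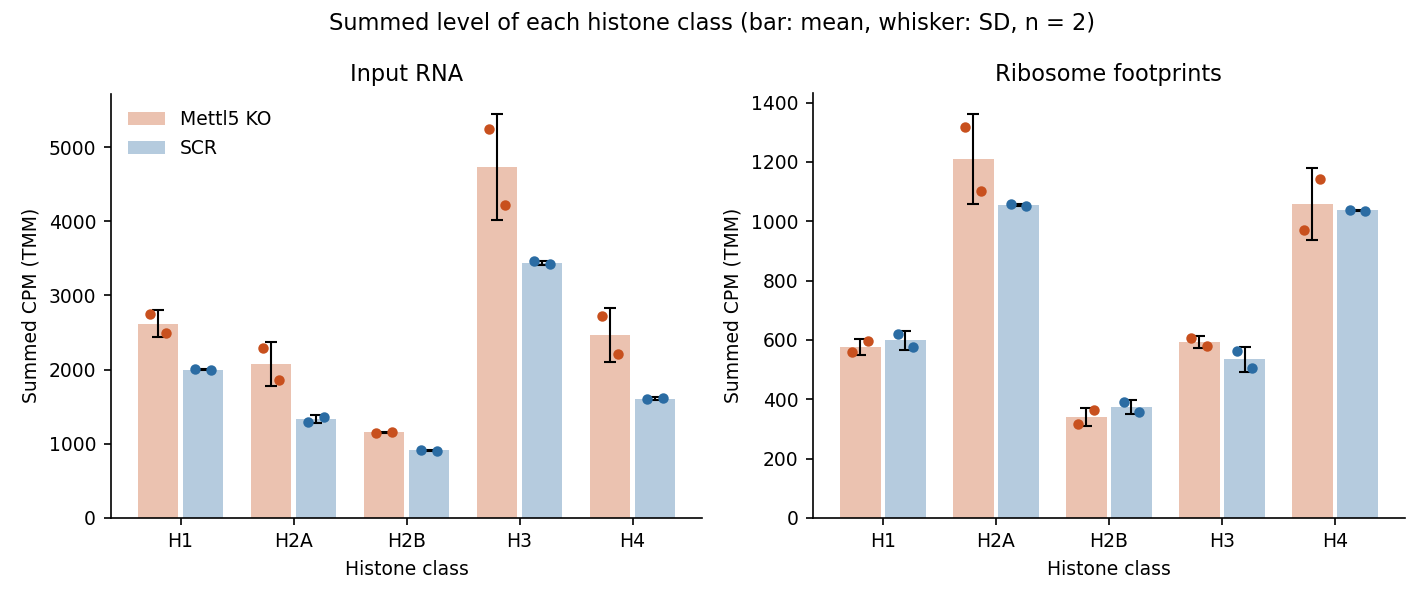
Summed level of each histone class in CPM, for input RNA (left) and footprints (right). Points are libraries, bars the mean and whiskers the SD of 2 libraries, with KO in orange left of SCR in blue. In input RNA the KO libraries lie above the SCR libraries in all 5 classes, by 1.27-fold to 1.56-fold in the means; in footprints the ratios run from 0.912 to 1.15.

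Among the linker histone genes, H1f2, H1f3 and H1f4 made nearly all H1 message. H1f2 had 1178 and 932 CPM in KO input RNA, against 682 and 701 CPM in SCR input RNA (log2 fold change 0.61, SE 0.10, adjusted p = 0.0103, edgeR). H1f4 had 882 and 833 CPM in KO input RNA, against 685 and 672 CPM in SCR input RNA (0.34, SE 0.05, adjusted p = 0.0071, edgeR). H1f3 had 690.1 and 724 CPM in KO input RNA and 637 and 623 CPM in SCR input RNA, and its adjusted p of 0.0511 (edgeR) missed the threshold. KO libraries were above SCR libraries for these 3 genes without overlap. In footprints the order of the genotypes was not the same. H1f4 had 140.4 and 145 CPM in KO footprints, against 179.6 and 163 CPM in SCR footprints (log2 fold change -0.26, adjusted p = 0.112, edgeR). H1f2 had 99.6 and 100.2 CPM in KO footprints, against 123 and 105 CPM in SCR footprints. H1f3 had 301 and 334 CPM in KO footprints, against 303 and 292 CPM in SCR footprints, and for this gene the groups overlapped. H1f1 was at 0.637 to 1.41 CPM in input RNA, and H1f5 was listed at 0 in all 4 input libraries but at 7.05 to 8.04 CPM in footprints.

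Among the H2A genes, H2ac18, with a RefSeq-length-scaled mean of 1050.1 CPM per kb in input RNA, had 895 and 659.8 CPM in KO input RNA, against 355 and 425 CPM in SCR input RNA (log2 fold change 0.99, SE 0.14, adjusted p = 0.00738, edgeR). Its neighbouring copy H2ac19 had 42.3 and 17.4 CPM in KO input RNA and was at 0 in both SCR input libraries. Against a floor of 3 counts over the SCR libraries H2ac19 was at least 811-fold higher, but the assignment of reads between these copies is uncertain. Summed, the pair had 938 and 677 CPM in KO input RNA, against 355 and 425 CPM in SCR input RNA, a 2.07-fold ratio. H2ac20 had 421 and 343 CPM in KO input RNA, against 235 and 247 CPM in SCR input RNA (0.67, SE 0.09, adjusted p = 0.00679, edgeR). H2ac4 had 366 and 314 CPM in KO input RNA, against 249.6 and 252 CPM in SCR input RNA (0.44, SE 0.07, adjusted p = 0.0109, edgeR). H2ac8 had 104 and 88.6 CPM in KO input RNA, against 67.0 and 68.6 CPM in SCR input RNA (0.50, adjusted p = 0.00933, edgeR). For each of these the KO libraries lay above the SCR libraries. Of the 18 H2A genes tested 9 rose, and H2ac10 was not among them: it had 162 and 173 CPM in KO input RNA and 158 and 154 CPM in SCR input RNA, with an adjusted p of 0.218 (edgeR). H2ac22 had the lowest log2 fold change of the members, -0.38, with 4.39 and 4.19 CPM in KO input RNA and 8.56 and 2.66 CPM in SCR input RNA, which overlap.

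H2A footprints were led by H2ac6, with 418 and 331 CPM in KO footprints and 207 and 302 CPM in SCR footprints (log2 fold change 0.56, SE 0.21, adjusted p = 0.199, edgeR). H2ac11 had 81.1 and 66.0 CPM in KO footprints and 50.04 and 51.14 CPM in SCR footprints (0.54, SE 0.11, adjusted p = 0.0773, edgeR). Both KO libraries were above both SCR libraries for these genes, yet neither passed the threshold. H2ac18 footprints scattered too widely to compare, with 104 and 11.8 CPM in KO cells and 158 and 35.04 CPM in SCR cells (log2 fold change -0.75, adjusted p = 0.735, edgeR).

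Among the H2B genes, H2bc4 had 279 and 277 CPM in KO input RNA, against 213 and 208 CPM in SCR input RNA (log2 fold change 0.40, SE 0.05, adjusted p = 0.00372, edgeR), the smallest p of its class. H2bc12, H2bc9 and H2bc3 rose by log2 fold changes of 0.42, 0.39 and 0.53. H2bc12 had 74.8 and 74.2 CPM in KO input RNA, against 55.8 and 55.2 CPM in SCR input RNA. H2bc8, one of the most abundant H2B mRNAs, had 223 and 243 CPM in KO input RNA and 219.6 and 207 CPM in SCR input RNA, with an adjusted p of 0.191 (edgeR). H2bc22 had the largest log2 fold change of the members other than H2ac19, 1.27 (SE 0.26, adjusted p = 0.0189, edgeR), at only 1.75 and 1.69 CPM in KO input RNA, against 0.651 and 0.773 CPM in SCR input RNA. In footprints H2bc6 led, with 145 and 175 CPM in KO cells and 188 and 167 CPM in SCR cells, which overlap. H2bc4 had 67.3 and 77.9 CPM in KO footprints, against 102 and 88.1 CPM in SCR footprints, without overlap but with an adjusted p of 0.126 (edgeR). H2bc18 was at 0 in all 8 bulk libraries, as was H3c13.

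Among the H3 genes, H3c15, with the highest input level per length of all members (1837 CPM per kb), had 1442 and 1316 CPM in KO input RNA, against 991 and 1019 CPM in SCR input RNA (log2 fold change 0.46, SE 0.06, adjusted p = 0.00471, edgeR). H3c6 had 845 and 783 CPM in KO input RNA, against 582 and 563 CPM in SCR input RNA (0.51, SE 0.05, adjusted p = 0.00327, edgeR). H3c7 had 523 and 494 CPM in KO input RNA, against 383 and 388 CPM in SCR input RNA (0.40, SE 0.05, adjusted p = 0.00471, edgeR). H3c8 had 544 and 439 CPM in KO input RNA, against 334 and 306 CPM in SCR input RNA (0.62, SE 0.10, adjusted p = 0.00957, edgeR). KO libraries were above SCR libraries in all 4. H3c14 stood apart: it had 428 and 172 CPM in KO input RNA and 132 and 299.9 CPM in SCR input RNA. Its footprints, at 13.4 and 0.953 CPM in KO cells and 1.44 and 0.234 CPM in SCR cells, gave the largest footprint log2 fold change of the members (3.09, SE 1.41, adjusted p = 0.255, edgeR). Summed with H3c13 and H3c15, it gave 1870.3 and 1488 CPM in KO input RNA, against 1123 and 1319 CPM in SCR input RNA. H3c7 had the smallest footprint p of all members, with 238 and 211 CPM in KO footprints, against 132 and 159 CPM in SCR footprints (0.62, SE 0.11, adjusted p = 0.0673, edgeR).

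The H4 genes had the largest share of members that rose, 10 of 11 tested. H4c8 had 212 and 171 CPM in KO input RNA, against 109 and 109.7 CPM in SCR input RNA (log2 fold change 0.81, SE 0.10, adjusted p = 0.00442, edgeR). H4c14 had 857 and 659 CPM in KO input RNA, against 485 and 479.6 CPM in SCR input RNA (0.65, SE 0.11, adjusted p = 0.0111, edgeR). H4c4 had 663 and 558 CPM in KO input RNA, against 409 and 431 CPM in SCR input RNA (0.54, SE 0.08, adjusted p = 0.00817, edgeR). H4c2, H4c3 and H4c6 rose by log2 fold changes of 0.59, 0.67 and 0.56. The KO libraries lay above the SCR libraries for each. H4c4, the member with the highest footprint level per length (1590.2 CPM per kb), had 592 and 700.3 CPM in KO footprints and 605 and 659 CPM in SCR footprints, which overlap (0.03, SE 0.11, adjusted p = 0.89, edgeR). H4c8 footprints, at 29.4 and 34.1 CPM in KO cells and 40.3 and 31.9 CPM in SCR cells, overlapped too.

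The footprint comparison addressed whether these genes differ in the RNA held by ribosomes. Of 52 members tested, 0 rose and 0 fell in edgeR over 16878 genes, of which 0.51% rose and 1.78% fell. At an unadjusted p under 0.05 there were 13 members, and DESeq2 called 2 higher and 2 lower. The shares of all genes at these settings were not counted, so whether these counts exceed them cannot be told. The members' median log2 fold change was 0.02, against 0.0066 over all genes, with 27 members above 0 and 25 below. Of all 64 members, tested or not, 15 had both KO footprint libraries above both SCR libraries and 17 had both below. The 15 include H2ac14 and H2bc1, and the 17 include H2ac1, H2ac13, H2bc23 and H2bc24, which were not tested. Over all genes tested these shares were 29.5% and 28.2%. All members summed to 3777 ± 6.03 CPM in KO footprints and 3598 ± 103 CPM in SCR footprints (SD, n = 2 each), a 1.05-fold ratio. H2A summed to 1318 and 1101 CPM in KO footprints and 1058 and 1053 CPM in SCR footprints, and H3 to 607 and 578 CPM in KO footprints and 564 and 505 CPM in SCR footprints. In both classes KO lay above SCR without overlap. With KO replicate 1 left out the log2 change of H2A was 0.06 in place of 0.20, and with KO replicate 2 left out it was 0.31. That of H3 was 0.07 in place of 0.15 when SCR replicate 2 was left out. The sums of H1, H2B and H4 overlapped between the genotypes.

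Translational efficiency, the footprint change less the input RNA change on the log2 scale, was tested as the interaction of assay and genotype over 23211 genes. Of 62 members tested, 12 fell in KO cells and 0 rose, where 3.4% of all genes fell and 0.788% rose. The members' median was -0.58, against -0.0547 over all genes. At an unadjusted p under 0.05 there were 33 members, and the share of all genes at that setting was not counted. Of the 62, 10 had at most 9 counts in any footprint library and had not passed the footprint filter, among them H2ac19 with 0 footprints. Among the other 52 the median was -0.56 and 30 had an unadjusted p under 0.05, and they include all 12 that fell. The 12 were H1f2, H1f4, H2ac21, H2bc4, H2bc8, H2bc9, H2bc12, H3c11, H3c15, H4c6, H4c8 and H4c9, and 11 of them had also risen in input RNA. Of all members tested in input RNA 69.5% rose. Since efficiency subtracts the input RNA change, this overlap is no separate evidence. H1f4 fell by 0.64 on the log2 scale (SE 0.09, adjusted p = 0.0205, edgeR), the smallest p of the members. H2bc4 fell by 0.82 (SE 0.12, adjusted p = 0.0224, edgeR), and H2ac21 fell by 0.71 (SE 0.11, adjusted p = 0.0233, edgeR). H4c8 fell by 1.03 (SE 0.19, adjusted p = 0.0362, edgeR), and H3c11, at 0.659 to 1.75 CPM in input RNA, fell by 1.69 (SE 0.29, adjusted p = 0.0302, edgeR). Among the 12, footprint log2 fold changes ran from -0.52 to 0.04, and all 12 had an input RNA log2 fold change above 0. H2bc8, which did not pass in input RNA, fell by 0.46 in translational efficiency, with 11.9 and 11.8 CPM in KO footprints, against 14.7 and 14.3 CPM in SCR footprints. Of 49 members tested in both assays, 44 had a larger log2 fold change in input RNA than in footprints. The share of all genes was not counted, and since most members rose in input RNA this count is no separate evidence. In the authors' deposited table of translational efficiency, 15 of 56 members with an adjusted p were lower in KO cells at under 0.05 and 0 were higher, against 8.69% of all genes lower. The authors' deposited table gave H1f4 an efficiency of 0.0899 in KO cells and 0.142 in SCR cells. The number of members that fell was 0 without replicate 1 of the KO input libraries, 0 without replicate 1 and 0 without replicate 2 of the SCR input libraries, 6 without replicate 1 of the KO or of the SCR footprint libraries, and 3 with limma voom.

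**Figure D3:**
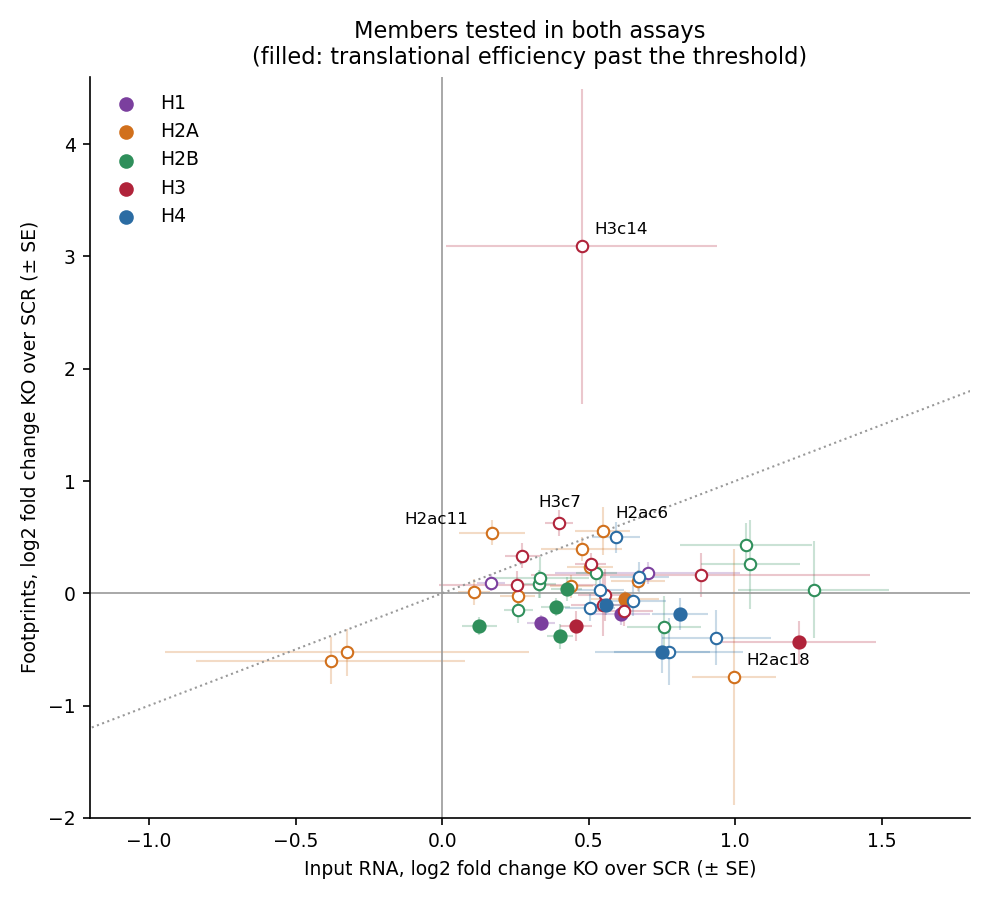
Log2 fold change of KO over SCR in input RNA (horizontal) and in footprints (vertical) for the 49 members tested in both, with SE bars, coloured by class. Filled points are members whose translational efficiency passed the threshold. Solid lines mark 0 and the dotted line marks equal change in both assays. Below that line lie 44 members, and the share of all genes below it was not counted. H3c14 and H2ac18 have the widest bars in footprints.

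As ratios of class sums, footprints over input RNA came to 0.289 in KO cells and 0.387 in SCR cells for all members, a log2 change of -0.42. For H4 the ratio was 0.429 in KO cells and 0.644 in SCR cells (-0.59). H3, at 0.125 in KO cells and 0.155 in SCR cells, had a log2 change of -0.31. H2A stood at 0.583 in KO cells and 0.793 in SCR cells, H2B at 0.295 in KO cells and 0.411 in SCR cells, and H1 at 0.220 in KO cells and 0.299 in SCR cells.

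Some copies differed between libraries of 1 genotype. In input RNA, 7 of 56 members with a mean of at least 1 CPM differed by over 1.5-fold between the 2 libraries of a genotype: H1f1, H2ac14, H2ac19, H2ac22, H3c3, H3c10 and H3c14. In footprints 4 of 50 did: H2ac18, H3c2, H3c14 and H4c17. H2bc23 had 96.8 and 92.1 CPM in KO input RNA and 71.4 and 71.8 CPM in SCR input RNA but 0 to 0.332 CPM in any footprint library. H4c12 had 17.1 to 19.6 CPM in KO input RNA and 11.5 to 12.3 CPM in SCR input RNA, with footprints at 0.0369 to 0.167 CPM. H1f1 is on the list with 42 and 28 counts in the SCR input libraries. Whether reads were split unevenly between copies was not tested. The authors' list of translated reading frames held an annotated frame for 56 of the 64 genes, among them that of H4c8 at chr13:23715285-23715593 in GRCm39. It listed 3 other frames in these genes, an upstream one in H1f3 (36 bases) and in H2ac18 (33 bases) and a downstream one in H2bc4 (42 bases).

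Genes that act on histone mRNA and protein were read from lists of known roles. The counts of each list are to be read beside the shares of all genes tested in input RNA, of which 9.56% rose and 7.21% fell. Of 16 genes of histone mRNA 3′ end processing, 3 rose in KO input RNA and 0 fell. Slbp, which binds the stem-loop, had 103 and 99.9 CPM in KO input RNA, against 73.0 and 74.3 CPM in SCR input RNA (log2 fold change 0.46, SE 0.05, adjusted p = 0.0038, edgeR). In footprints Slbp had 63.4 and 62.6 CPM in KO cells, against 54.6 and 52.9 CPM in SCR cells (0.23, adjusted p = 0.0995, edgeR). The others were Srrt, a partner of the cap-binding complex (0.26), and Cpsf1, a subunit of the cleavage complex (0.25). Of 15 genes of histone gene transcription, 1 rose and 2 fell. Npat, the coactivator of the histone clusters, had 66.3 and 69.4 CPM in KO input RNA, against 80.5 and 86.4 CPM in SCR input RNA (-0.30, SE 0.06, adjusted p = 0.0188, edgeR). Cdk2, the kinase that acts on NPAT, fell by 0.27, and the transcription factor gene E2f3 rose by 0.20.

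Of 15 genes of histone mRNA decay and translation, 4 rose in KO input RNA and 1 fell. Upf1, a helicase needed for histone mRNA decay, had 392 and 379 CPM in KO input RNA, against 279 and 288 CPM in SCR input RNA (log2 fold change 0.44, SE 0.05, adjusted p = 0.00338, edgeR). Lsm4, of the ring that binds RNA ends, had 124 and 98.4 CPM in KO input RNA, against 59.2 and 59.7 CPM in SCR input RNA (0.90, SE 0.10, adjusted p = 0.00404, edgeR). Xrn1, the 5′ to 3′ exonuclease, fell by 0.30. Eri1, the exonuclease that trims the histone stem-loop, was the one gene of all the lists that passed in footprints, with 38.9 and 40.0 CPM in KO footprints, against 26.9 and 26.3 CPM in SCR footprints (0.57, SE 0.06, adjusted p = 0.0331, edgeR). Eri1 also rose in input RNA, by a log2 fold change of 0.29.

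Of 27 histone chaperone and import genes, 5 rose in KO input RNA and 0 fell, among them Npm1 (0.53), Hira (0.36) and Hat1 (0.24), which acetylates new H4. Of 10 histone variant genes tested that are not members, 5 rose and 0 fell. H2ax, the variant phosphorylated at DNA breaks, had 1233 and 1019.5 CPM in KO input RNA, against 799 and 780.0 CPM in SCR input RNA (0.51, SE 0.08, adjusted p = 0.0104, edgeR), and H2az1 rose by 0.38. Of 44 S phase and DNA replication genes, 20 rose and 0 fell, with a median of 0.21, less than the members' 0.53. They include Cdt1 (0.54), which loads the helicase at origins, Pcna (0.33), the sliding clamp, Mcm7 (0.35), of the replicative helicase, and Gins4 (0.41), of the GINS complex. Slbp is on this list as well as on that of 3′ end processing. Of 24 genes of mitosis, 3 rose and 2 fell, with a median of -0.04, where 9.56% of all genes rose and 7.21% fell. In footprints 0 genes of the S phase and mitosis lists passed. In translational efficiency 3 of the 44 S phase genes fell, Cdt1, Pold1 and Mcm7, and 0 rose, where 3.4% of all genes fell. On the other lists Cpsf1 (-0.44), the cleavage complex gene Wdr33 (-0.34), E2f1 (-0.71), an S phase transcription factor gene, Upf1 (-0.54), Hira (-0.42) and the variant genes H3f3b (-0.48) and H2aj (-0.78) fell, and 0 genes rose. The part of S phase genes in the members' rise was not tested.

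The genes whose pattern over the 8 libraries lay nearest to the summed histone level, by Euclidean distance of log2 levels centred within each assay over 6981 candidates, were Abcb10 (distance 0.07), Mri1 (0.08), Tarbp1 (0.08), Gpat4 (0.09) and Dnaaf5 (0.10). Abcb10 had 33.8 and 28.7 CPM in KO input RNA, against 22.3 and 21.5 CPM in SCR input RNA, and overlapped between genotypes in footprints.

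In the single-cell data each genotype is 1 library, so no test across samples was possible, and intervals (95%, exact Poisson) cover counting error only. The 10x libraries prime on poly(A), which most of these mRNAs lack, so UMIs count the captured fraction. After filtering, 8361 cells were kept in the KO tumour library and 8239 in the SCR tumour library, with median depths of 8035 UMIs a KO cell and 8906 UMIs an SCR cell, and 116 barcodes were shared by both. Over all cells, 11.6 of every 10000 UMIs were histone UMIs in the KO tumour (interval 11.5 to 11.6) and 11.4 in the SCR tumour (11.3 to 11.5). Of 66 features, 63 had a UMI. Among 45 members with at least 100 UMIs in both libraries, KO over SCR ratios ran from 0.812 (H2ac13) to 1.24 (H2ac10), with a median of 1.02.

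Cells fell into 25 clusters, formed without histone features, of which 6 were named from markers. One, with Mki67, Top2a, Birc5, Ccna2 and Cenpf among its 10 leading genes and called cycling cell-like, held 544 KO and 526 SCR cells. Its histone level was 48.5 per 10000 UMIs in the KO tumour (48.1 to 48.9) and 48.1 in the SCR tumour (47.7 to 48.5). That was 7.42 times the level of all other KO cells and 7.59 times that of all other SCR cells. This cluster gave 50.2% of the histone UMIs of the KO tumour and 51.1% of those of the SCR tumour (exact binomial intervals 49.9% to 50.6% in the KO tumour and 50.8% to 51.4% in the SCR tumour). H2A counted for 17.6 per 10000 UMIs there in the KO tumour and 17.9 in the SCR tumour, and H1 for 20.5 in the KO tumour and 20.3 in the SCR tumour. Over its 33 members with at least 100 UMIs in both libraries the KO over SCR ratio had a median of 1.04 and ran from 0.814 to 1.42. Doublets were not removed, since the caller marked 1 KO cell and 0 SCR cells and so had not worked. The cycling cluster's median depth was 18628 UMIs in KO cells and 21296 in SCR cells, above that of all cells, and the part of doublets in it was not tested.

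**Figure D4:**
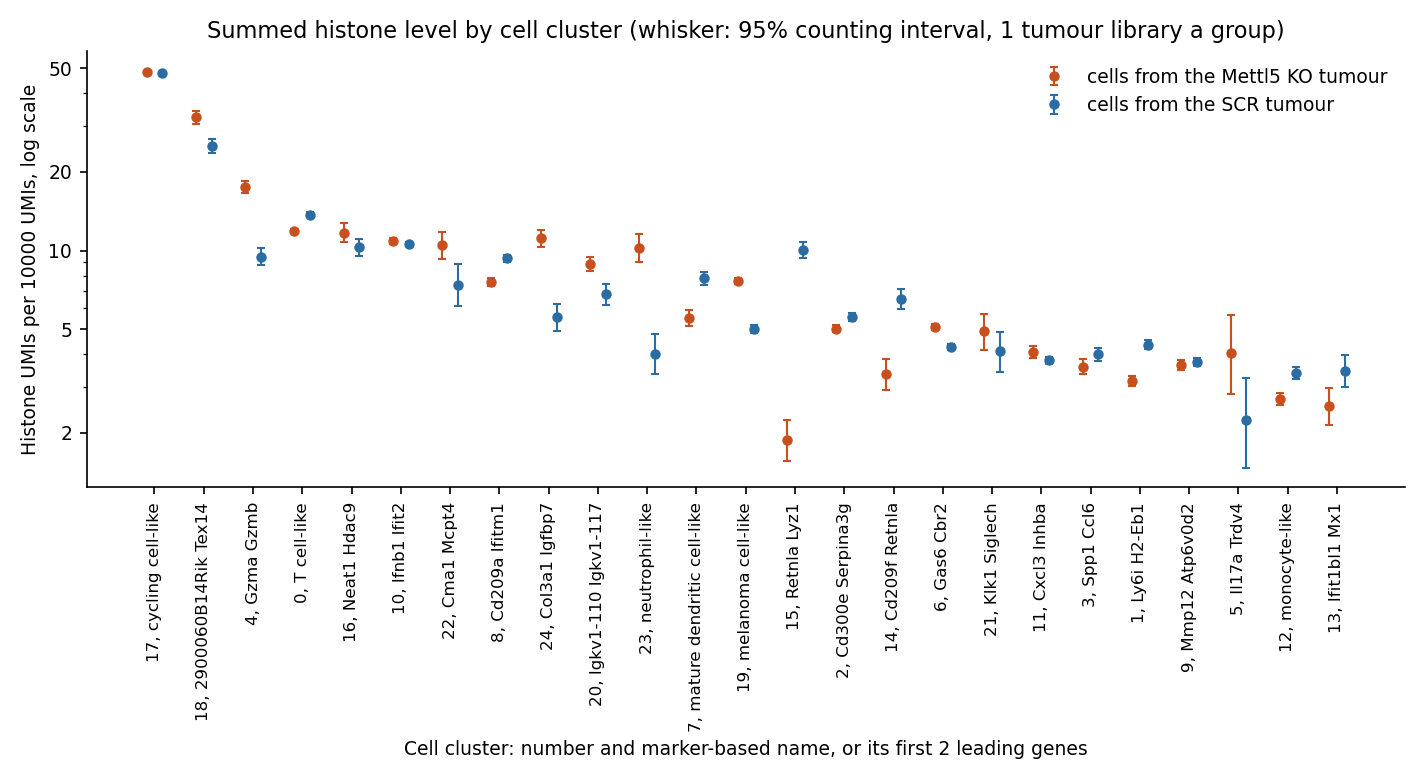
Histone UMIs per 10000 UMIs, on a log scale, in each of 25 cell clusters, ordered by mean level, for the KO tumour (orange) and the SCR tumour (blue, to its right). Whiskers are 95% counting intervals of 1 library each. Cluster 17, cycling cell-like, is highest at 48.5 in the KO tumour and 48.1 in the SCR tumour; the sparse clusters have wide intervals.

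A second cluster, with Pmel, Dct, Tyrp1 and Mlana among its 10 leading genes, was melanoma cell-like, although the sort was for CD45. It held 253 KO and 186 SCR cells, and Ptprc, which encodes CD45, stood at 14.7 per 1000000 UMIs in its KO cells and 17.5 in its SCR cells, against 316 in the KO tumour and 305 in the SCR tumour in cells outside this cluster and the cycling one. Its histone level was 7.62 per 10000 UMIs in KO cells (7.42 to 7.82) and 4.99 in SCR cells (4.81 to 5.16), a 1.53-fold ratio. H1f4 had 241 per 1000000 UMIs in KO cells and 132 in SCR cells, and H2bc18, at 0 in the bulk tables, had 40.3 in KO cells and 12.5 in SCR cells. H2bc4, at 33.2 in KO cells and 33.8 in SCR cells, did not differ beyond counting error. Cycling markers moved with this: the 10 genes summed to 1365 per 1000000 UMIs in KO cells and 867 in SCR cells of the cluster. Their part in the difference was not tested. In the cluster Mettl5 had 22.1 per 1000000 UMIs in KO cells (18.8 to 25.7) and 31.0 in SCR cells (26.8 to 35.6).

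Other clusters did not share 1 direction. Of 17 clusters with at least 100 cells in both libraries, 9 had a higher level in the KO tumour. The 17 include the cycling and melanoma cell-like clusters, which are both among the 9. Ratios over the 17 ran from 0.706 in the mature dendritic cell-like cluster to 1.85 in a cluster led by Gzma and Gzmb, with a median of 1.01. After the cycling cell-like cluster the highest level was in a cluster led by 2900060B14Rik and Tex14. It had 32.4 per 10000 UMIs in the KO tumour and 25.1 in the SCR tumour, in 118 cells each. Its median depth was 2084 UMIs in KO cells and 2744.5 UMIs in SCR cells. T cell-like cells had 11.9 per 10000 UMIs in the KO tumour and 13.7 in the SCR tumour. Clusters of under 100 cells in a library differed both ways. Neutrophil-like cells had 10.2 per 10000 UMIs in 44 KO cells and 4.02 in 64 SCR cells, and a cluster led by Col3a1 and Igfbp7 had 11.2 in 36 KO cells and 5.56 in 28 SCR cells. A cluster led by Retnla, Lyz1 and Ear2 had 1.87 per 10000 UMIs in its 78 KO cells and 10.02 in its 100 SCR cells. Monocyte-like cells were among the lowest, at 2.71 in the KO tumour and 3.39 in the SCR tumour.

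The makeup of the H1 class was read in the cultured cells and in 2 clusters. In the cycling cell-like cluster H1f5 gave 35.3% of H1 UMIs in the KO tumour (34.65% to 35.95%) and 33.9% in the SCR tumour (33.3% to 34.6%), and H1f1 gave 13.7% in the KO tumour and 12.3% in the SCR tumour. A large H1f5 share was not particular to this cluster. Over all cells H1f5 gave 26.7% of H1 UMIs in either tumour, and H1f1 10.2% in the KO tumour and 9.43% in the SCR tumour. T cell-like cells had H1f5 at 1291 of 4627 H1 UMIs in the KO tumour and 1323 of 4450 in the SCR tumour. In the melanoma cell-like cluster H1f5 gave 0.814% in KO cells (0.511% to 1.23%) and 1.69% in SCR cells (1.07% to 2.52%), on 22 UMIs in KO cells and 23 UMIs in SCR cells. H1f4 gave 65.0% there in KO cells (63.2% to 66.8%) and 61.3% in SCR cells (58.6% to 63.9%). In the cultured cells H1f5 was at 0% of H1 input RNA per length in all 4 libraries and at 1.25% to 1.39% of H1 footprints in KO cells and 1.10% to 1.26% in SCR cells. Within bulk H1 input RNA, H1f2 took 39.1% to 44.6% in KO cells and 35.7% to 36.8% in SCR cells. Among H1 footprints H1f3 led, with 53.3% to 55.5% in KO cells and 48.3% to 50.2% in SCR cells. The melanoma-like cells are 1 library a genotype, so these shares have no replicate check.

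**Figure D5:**
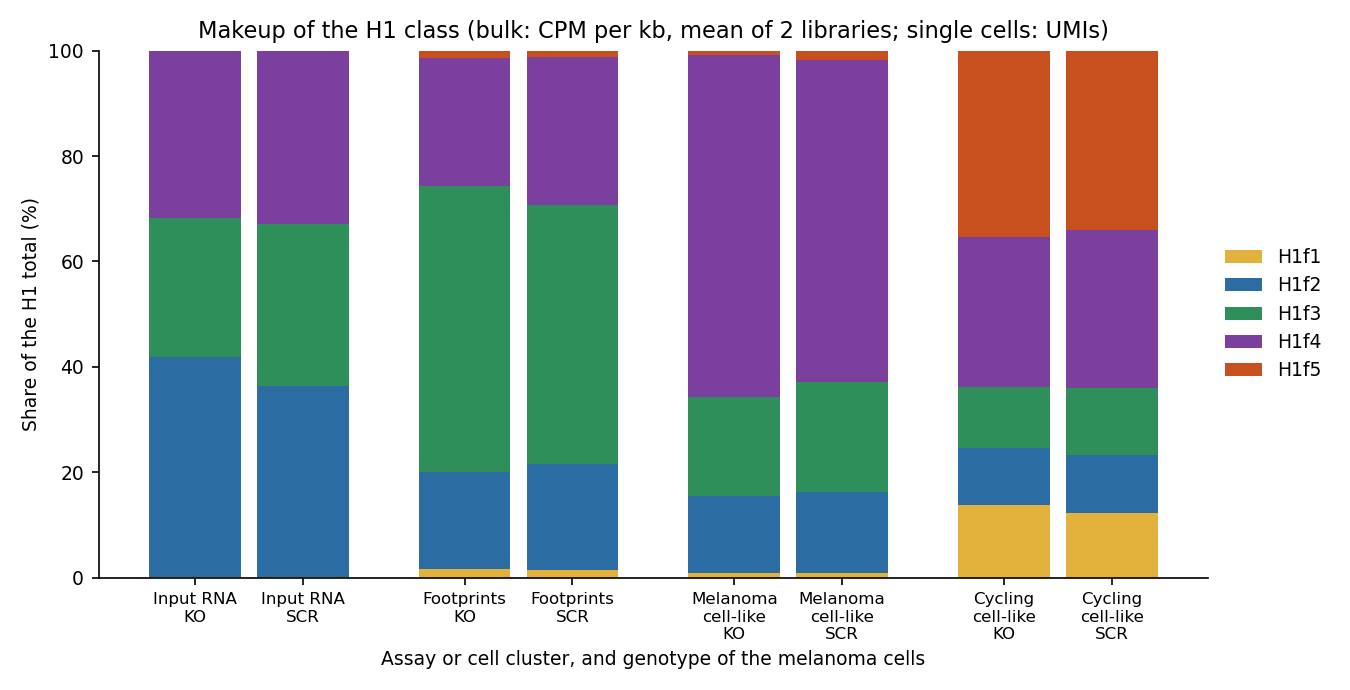
Share of each H1 gene in the H1 total, in percent, for input RNA, footprints and 2 single-cell clusters, with KO left of SCR in each pair. Bulk bars are means of 2 libraries of CPM per kb of RefSeq length and single-cell bars are shares of UMIs. H1f5 and H1f1 are sizeable in the cycling cell-like cluster, at 35.3% and 13.7% in the KO tumour, and near 0 in input RNA. Over all cells of the KO tumour, not drawn, they gave 26.7% and 10.2%.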

How the data were processed

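Gene counts for input RNA and footprints were estimated counts as deposited by the authors, unnormalised, on GRCm39; STAR 2.7.10a and StringTie 2.1.7 are named, without role, in the submitters' processing notes. No source used here says how RNA was selected before library making. The authors' deposited table of translational efficiency holds a ratio per genotype, its log2 change and an adjusted p-value, by a method that no header or label names. Of the authors' reading frame list the positions and block lengths were used. The deposited single-cell matrices hold UMI counts, made with Cell Ranger 8.0.1 as their headers state.

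Counts were rounded, filtered by expression and scaled by TMM, and tested with edgeR 4.0.16 (quasi-likelihood, Benjamini-Hochberg adjustment over all genes, threshold 0.05) in R 4.3.3, separately for input RNA and footprints and, for translational efficiency, as the assay by genotype interaction over all 8 libraries. TMM-scaled CPM were summed by class. DESeq2 1.42.0, limma 3.58.1 voom, other filters, scaling and left-out libraries were alternatives. The fits were tested on simulated data. Levels per length used RefSeq lengths under 1000 bases; promoters and chromosomes also came from RefSeq (GRCm38.p6).

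Cells with at least 500 UMIs, 300 genes and under 10% mitochondrial UMIs were kept, and clustered with scanpy 1.11.5 (2000 variable genes without histone features, 30 components, 15 neighbours, Leiden resolution 1). A cluster was named where 3 markers of 1 list were among its 10 leading genes.

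Members to name were, per class, the 3 of highest mean CPM and up to 4 past the threshold by smallest p, with those past it in translational efficiency and the extremes of fold change; other members were named after their values were seen. Of each pathway list up to 5 genes past the threshold were eligible. The members, lists and tests were chosen with earlier results of these data known.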

Additional observations from a re-analysis of the deposited data

How the results depend on the processing

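Input RNA sums and footprint sums kept their direction under each scaling and left-out library except the footprint sums of H1 and H4. With plain library totals in place of TMM the log2 change of the sum of all members in footprints was 0.18 in place of 0.07, that of H1 in footprints 0.0562 in place of -0.05, and that of H2B in input RNA 0.27 in place of 0.34. Leaving out each library in turn gave 0.36 to 0.61 for all members in input RNA, 0.04 to 0.08 for all members in footprints and -0.10 to 0.14 for H4 in footprints. Members higher in input RNA numbered 41; with no filter on low counts they numbered 23, and 25 to 43 with each library left out. Lower ones numbered 0, and 0 to 1 with each library left out. In footprints DESeq2 called 2 members higher and 2 lower where edgeR called 0. Members lower in translational efficiency numbered 12; limma voom called 3 and DESeq2 called 18, and 0 to 12 were called with each library left out. The causes were not tested.

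The labels do not say that replicate numbers pair libraries, so the numbers were not taken to pair samples. Over genes, the deviation of replicate 1 from its genotype mean correlated weakly between KO and SCR (r = 0.11 in input RNA, 0.05 in footprints). Whether input RNA and footprint libraries of the same number are paired was not tested. With the replicate block 7 members were lower in translational efficiency in place of 12, 42 were higher in input RNA in place of 41, and 0 passed in footprints. Over the single genes followed, 142 of 588 values under an alternative lost the threshold, 1 gained it and 0 changed sign.

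Thinned to 2000 UMIs a cell, histone UMIs were 8.66 per 10000 in the KO tumour (720 cells left out) and 8.51 in the SCR tumour (577 left out). Without thinning they were 11.6 in the KO tumour and 11.4 in the SCR tumour. Thinning gives each cell the same weight, whereas the unthinned level gives deeper cells more, so these levels are not measured alike. Depth limits the copies under 1 CPM and the clusters of under 100 cells.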
